A study of Mus musculus with 20 samples.

Results

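Transcription was compared between 30 min and 1 h after induction of IKZF1 in B3 cells, a mouse line of lymphoma origin whose expression profile resembles that of pre-B progenitors. The comparison uses 4 of the 20 libraries of a time course, chosen by the time point in their labels: 2 libraries at 30 min, the reference, and 2 libraries at 1 h. All 4 came from B3 cells that carried IKZF1-ERt2 and received 500 nM 4-hydroxytamoxifen (4-OHT), so the groups differ only in time. The untreated cells at 0 h carry the same construct. None of the 20 libraries comes from 4-OHT-treated cells without it, so effects of IKZF1 and of 4-OHT itself cannot be told apart. IKZF1-ERt2 is IKZF1 fused to the hormone-binding domain of the estrogen receptor, which holds it inactive until 4-OHT binds. It was delivered with a retroviral vector that also encodes GFP, and infected cells were sorted for GFP, so the fusion is expressed from the vector in addition to whatever the native locus gives. RNA bound to chromatin was sequenced, and counts per gene include introns, so transcripts still being elongated contribute. Nothing in the labels says whether replicates are separate cultures, so p-values measure the spread between these libraries, which may be technical. In these bulk samples, fewer transcribing cells and less RNA per cell cannot be told apart.

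Ikaros, the product of Ikzf1, is a zinc finger protein that binds DNA with a GGGAA core and recruits corepressor complexes such as NuRD. In pre-B cells it is known for shutting off genes of the large, cycling stage, among them the surrogate light chain that pairs with the immunoglobulin heavy chain in the pre-B cell receptor (pre-BCR), and for favoring exit from the cell cycle. Because chromatin-associated RNA has little of the stable cytoplasmic pool, its level follows ongoing transcription more closely than total RNA does.

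The 2 libraries at 30 min held 34868963 and 42867749 counts and the 2 at 1 h held 46868954 and 39457979, within the range of 33296158 to 46868954 over all 20. Values are given as counts per 1000000 reads (CPM), with library sizes scaled by TMM factors, and differences as the log2 fold change of 1 h against 30 min from edgeR's quasi-likelihood test, with its standard error (SE) after the ± sign. A gene was called where its adjusted p was under 0.01 and its fold change above 2. Ikzf1 itself read 4990.0 and 4949.5 CPM at 30 min and 4805 and 4742 CPM at 1 h (log2 fold change -0.06 ± 0.038, adjusted p = 0.243), a gene that gives no check of the labels because 4-OHT acts on the protein. Of the 12 pre-B markers, 11 were tested, and they summed to 11233 and 11346 CPM at 30 min and 16143 and 16053 CPM at 1 h, most of it from Ebf1. Singly, 6 of the 11 had a log2 fold change below 0 and 5 above, with a median of -0.18. The 5 T-cell markers tested summed to 20.01 and 18.3 CPM at 30 min and 10.3 and 9.04 CPM at 1 h, most of it from Zap70, the 3 myeloid markers tested to between 1.499 and 1.90 CPM, and the erythroid marker Klf1 lay between 0.156 and 0.491 CPM. Among defining markers of these other cells, Cd3d, Cd3e and Cd3g, Mpo and Elane were under the filter on low counts. Rag1, a pre-B marker, is listed at 0 in every library, as are 18 of the 320 list members and 3830 of 21976 protein-coding genes, B2m among them. A gene listed at 0 was therefore read as not measured.

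Between 30 min and 1 h, 511 of 16601 genes fell (3.08%) and 280 rose (1.69%). Among genes averaging at least 1 CPM, the fall was largest for Rhoj, Il16 and Fnip2, which kept between 6.92% and 13.1% of their 30 min level, and the rise for the long noncoding RNA Gm49439, which reached 872% of it. The genes that fell had a median log2 fold change of -1.41 and those that rose 1.32, while the median over all genes tested was -0.0011. A change above 4-fold was fitted for 101 of the genes that fell and 39 of those that rose. In every one of the 511 and the 280, both libraries at 1 h lay on the same side of both libraries at 30 min. Over all genes tested both 1 h libraries lay below both 30 min libraries in 36.4% and above them in 36.3%. Small differences were common, since 2613 genes (15.7%) fell and 2703 (16.3%) rose at an adjusted p under 0.01 when no fold was asked for.

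The genes called had fewer reads than genes at large. Their median level over the 4 libraries was 1.60 CPM where they fell and 1.34 CPM where they rose, against 7.80 CPM over all genes tested, and 310 and 161 of them averaged at least 1 CPM. Protein-coding genes made up 73.2% of those that fell, 67.1% of those that rose and 78.5% of all tested. Long intergenic noncoding RNAs were 14.3% and 16.1%, against 7.11% of all tested.

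**Figure D1:**
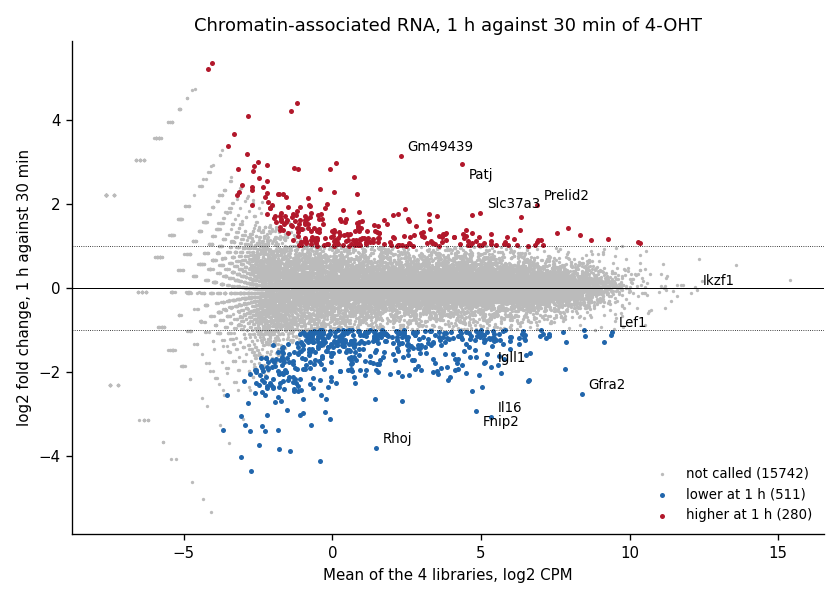
Each point is 1 of the 16533 tested genes with a count in the 4 libraries, with its mean level (log2 CPM) on the x axis and its log2 fold change, 1 h against 30 min, on the y axis. Dotted lines mark a 2-fold change, and the 511 genes called lower (blue) and 280 called higher (red) lie outside them. Called genes on both sides run from under 1 CPM (0 on the x axis) to high levels. Gfra2 and Lef1 are high-level genes called lower, and Prelid2 is a high-level gene called higher.

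For some of the leading genes that the RefSeq promoter set holds, the 250 bases before the outermost start site in that set are printed as examples. The Ikaros core is marked. Windows are given from GRCm38.p6, 5′ to 3′ on the strand of the gene, with GGGAA or its reverse complement TTCCC in capitals. They are shown for Rhoj, the largest fall, at chr12:75308063-75308312 (+ strand); for Ramp1, the partner protein of the calcitonin receptor-like receptor, which fell, at chr1:91179572-91179821 (+ strand); for Lair1, an inhibitory collagen receptor, which fell, at chr7:4063205-4063454 (- strand); for Igll1, a surrogate light chain gene, which fell, at chr16:16863986-16864235 (- strand); for Rab39, a Rab GTPase, which rose, at chr9:53706233-53706482 (- strand); and for Patj, a polarity scaffold, which rose, at chr4:98395576-98395825 (+ strand).
Rhoj: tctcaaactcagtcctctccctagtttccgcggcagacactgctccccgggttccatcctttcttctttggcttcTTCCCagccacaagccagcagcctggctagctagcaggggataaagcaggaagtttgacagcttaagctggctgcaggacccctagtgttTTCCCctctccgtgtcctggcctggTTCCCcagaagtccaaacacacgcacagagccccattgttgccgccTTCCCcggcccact
Ramp1: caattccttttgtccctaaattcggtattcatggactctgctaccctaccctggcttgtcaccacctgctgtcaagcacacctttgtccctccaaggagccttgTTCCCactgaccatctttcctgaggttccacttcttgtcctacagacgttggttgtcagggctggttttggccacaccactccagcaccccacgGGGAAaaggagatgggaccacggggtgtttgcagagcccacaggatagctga
Lair1: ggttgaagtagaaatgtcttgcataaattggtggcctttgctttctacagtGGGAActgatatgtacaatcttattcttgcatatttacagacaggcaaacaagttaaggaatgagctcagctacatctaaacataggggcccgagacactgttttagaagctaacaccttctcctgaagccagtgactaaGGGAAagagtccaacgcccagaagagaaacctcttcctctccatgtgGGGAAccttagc
Igll1: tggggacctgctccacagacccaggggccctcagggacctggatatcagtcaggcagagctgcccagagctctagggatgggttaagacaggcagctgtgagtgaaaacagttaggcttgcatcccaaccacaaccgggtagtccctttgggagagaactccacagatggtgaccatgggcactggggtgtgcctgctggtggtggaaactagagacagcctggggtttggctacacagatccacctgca
Rab39: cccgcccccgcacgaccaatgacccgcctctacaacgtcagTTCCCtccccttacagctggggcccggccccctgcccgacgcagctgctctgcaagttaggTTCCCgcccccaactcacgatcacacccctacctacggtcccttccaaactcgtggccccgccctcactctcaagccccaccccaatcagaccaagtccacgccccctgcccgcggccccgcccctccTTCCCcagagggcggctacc
Patj: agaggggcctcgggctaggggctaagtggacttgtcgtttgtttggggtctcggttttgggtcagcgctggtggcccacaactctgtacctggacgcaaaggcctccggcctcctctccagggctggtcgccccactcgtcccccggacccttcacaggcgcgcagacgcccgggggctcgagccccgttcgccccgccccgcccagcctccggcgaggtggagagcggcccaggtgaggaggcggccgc

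Rhoj holds 4 matches, Lair1 and Rab39 hold 3 each, Ramp1 holds 2, and Igll1 and Patj hold none in this window. Windows of other leading genes were read but are not printed. Leading genes on chromosome 18, Prelid2 among them, were left out of this reading. Among falls they held 3 matches (Mmrn1), 2 (Chac1), 1 (Fnip2 and Gm38534) and 0 (Il16 and Ptgs1). Among rises they held 3 (Car10), 1 (Kctd21 and Nyap1) and 0 (Mzf1 and Slc37a3). Windows were matched to genes by symbol and chromosome, and some lie away from the start in GENCODE M21. The Mmrn1 window begins at 60944067, inside a gene that starts at 60924976. The Il16 window ends at 83735789, inside a gene on the - strand that starts at 83745726. The Gm38534 window ends at 88230957, well before a gene that starts at 88253368. The letters therefore occur in the windows of some genes that fell and some that rose, and are missing in others of each kind. GGGAA was then counted on both strands over windows from 250 bases before to 50 after the RefSeq start. It was present in 67.6% of the windows of genes that fell (352 with a window), 61.1% of those that rose (167) and 64.6% of all tested (11241). The Wilson intervals were 62.6% to 72.3%, 53.5% to 68.1% and 63.7% to 65.5%. The longer TGGGAA, which contains GGGAA, was present in 32.1% (27.4% to 37.2%), 19.2% (13.9% to 25.8%) and 23.7% (22.9% to 24.5%) of the same windows. A match of letters is a description and not a bound site.

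The 12 largest falls among genes averaging at least 1 CPM were 11 protein-coding genes and 1 long noncoding RNA. Rhoj read 5.44 and 5.04 CPM at 30 min and 0.455 and 0.270 CPM at 1 h (log2 fold change -3.81 ± 0.23, adjusted p = 2.22e-11). Il16, which encodes the precursor of the chemoattractant cytokine interleukin-16, read 73.1 and 73.2 CPM at 30 min and 8.19 and 9.07 CPM at 1 h (-3.09 ± 0.066, adjusted p = 2.56e-18). Absence of overlap between the time points was a condition for entering these 12. Relative to their level, the 1 h libraries were further apart for Rhoj than for Il16. Gfra2, a co-receptor for neurturin, read 568 and 578 CPM at 30 min and 99.8 and 100.1 CPM at 1 h (-2.52 ± 0.036, adjusted p = 1.37e-21). Ramp1 read 45.3 and 42.5 CPM at 30 min and 7.90 and 8.08 CPM at 1 h (-2.46 ± 0.083). Gfra2 and Ramp1 kept 17.4% and 18.2% of their 30 min level and went on to 46.2 and 46.3 CPM and 2.43 and 2.78 CPM at 2 h.

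Ptgs1, the constitutive cyclooxygenase, read 53.8 and 54.9 CPM at 30 min and 11.0 and 10.1 CPM at 1 h (-2.36 ± 0.071). Mmrn1, which encodes the secreted protein multimerin, read 24.5 and 24.1 CPM at 30 min and 5.34 and 5.21 CPM at 1 h (-2.20 ± 0.10). The share of the 30 min level that was left was 19.4% for Ptgs1 and 21.7% for Mmrn1. Lower in reads were Lhfpl1 (4.63 and 4.75 CPM at 30 min and 0.724 and 0.762 CPM at 1 h), Lair1 (3.09 and 2.61 CPM at 30 min and 0.621 and 0.540 CPM at 1 h) and the long noncoding RNA Gm38534 (1.52 and 2.12 CPM at 30 min and 0.352 and 0.418 CPM at 1 h). Their log2 fold changes were -2.66, -2.27 and -2.26, and in each the libraries at 1 h lay below 1 CPM. Across the 12, adjusted p ran from 1.37e-21 for Gfra2 to 5.91e-07 for Gm38534.

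Among the largest falls were genes whose 30 min libraries lay near those at 0 h. Fnip2, a partner of folliculin in nutrient signaling, read 54.0 and 52.5 CPM at 0 h, 50.9 and 51.0 CPM at 30 min, 6.43 and 6.88 CPM at 1 h and 1.17 and 1.13 CPM at 2 h. Colq, which encodes the collagen tail of acetylcholinesterase, read 153 and 156 CPM at 0 h, 158 and 156 CPM at 30 min, 33.8 and 33.6 CPM at 1 h and 12.8 and 10.9 CPM at 2 h. In both genes the step to 1 h took away most of the signal (log2 fold change -2.94 ± 0.070 and -2.22 ± 0.074). Against 0 h, the log2 fold change at 30 min was -0.07 for Fnip2 (adjusted p = 0.541) and 0.03 for Colq (adjusted p = 0.859), a comparison that shares the 30 min libraries. Il16, by contrast, read 158 and 157 CPM at 0 h and thus had lost part of its signal by 30 min.

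Chac1, which encodes a glutathione-degrading enzyme, fell and then returned. It read 15.2 and 15.4 CPM at 0 h, 9.21 and 8.33 CPM at 30 min and 1.55 and 1.11 CPM at 1 h (-2.70 ± 0.12), 7.02 and 6.78 CPM at 2 h and 9.62 and 9.64 CPM at 6 h. The 1 h libraries were the lowest of these early time points, and by 24 h the gene was at 0.716 and 0.841 CPM.

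**Figure D2:**
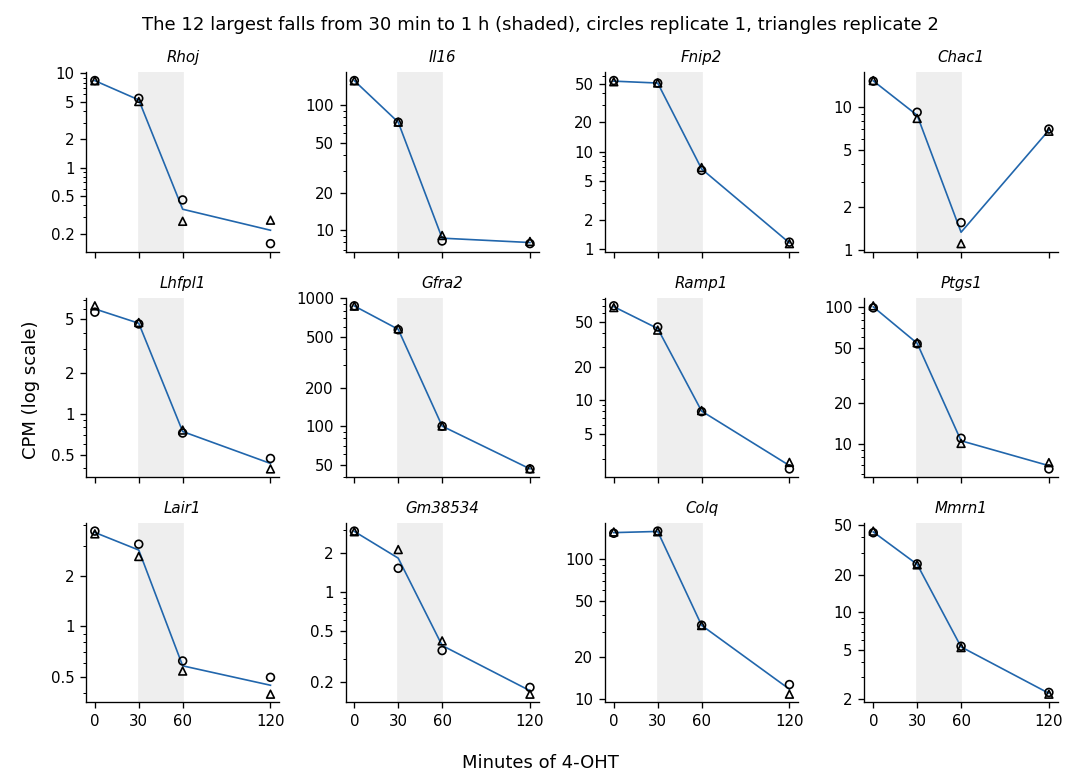
CPM on a log axis against minutes of 4-OHT for the 12 largest falls, with circles for replicate 1, triangles for replicate 2 and lines through the means. The shaded band is the step from 30 to 60 min, over which Fnip2 and Colq leave their 0 h level and Chac1 reaches its lowest value before 120 min.

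The largest rises included long noncoding RNAs and genes at a low level before the step. Gm49439 read 1.11 and 0.914 CPM at 30 min and 8.65 and 8.99 CPM at 1 h (log2 fold change 3.13 ± 0.13, adjusted p = 5.76e-14). Gm34933 read 0.271 and 0.223 CPM at 30 min and 1.99 and 1.87 CPM at 1 h (2.97 ± 0.34, adjusted p = 3.95e-07). Both were near their 0 h level at 30 min, with 0.951 and 1.04 CPM and 0.151 and 0.225 CPM at 0 h, and both were still higher at 2 h, at 50.1 and 52.8 CPM and 9.94 and 9.62 CPM. Patj, a scaffold of the Crumbs cell polarity complex, read 4.71 and 4.66 CPM at 30 min and 35.8 and 36.7 CPM at 1 h (2.95 ± 0.14, adjusted p = 3.31e-13). It stood at 72.5 and 70.3 CPM at 2 h and 1971 and 2089 CPM at 24 h. Car10, a carbonic anhydrase-related protein, read 0.406 and 0.513 CPM at 30 min and 2.83 and 2.95 CPM at 1 h (2.63 ± 0.19). Unlike Patj, it was back at its starting level by 24 h, with 9.92 and 10.5 CPM at 2 h and 0.328 and 0.299 CPM at 24 h.

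Prelid2, of the PRELI domain family, was called at this step and not at the ones beside it. It read 44.0 and 43.0 CPM at 0 h, 47.6 and 49.3 CPM at 30 min and 190.0 and 191 CPM at 1 h (1.98 ± 0.044, adjusted p = 5.48e-18) and 196 and 199 CPM at 2 h, and against 0 h and against 1 h the neighboring steps gave log2 fold changes of 0.16 and 0.05. Rab39 read 2.38 and 2.25 CPM at 30 min and 8.52 and 8.55 CPM at 1 h (1.88 ± 0.11). Nyap1, an adaptor of phosphoinositide 3-kinase, read 0.650 and 0.602 CPM at 30 min and 2.94 and 2.95 CPM at 1 h (2.23 ± 0.27). Rab39 and Nyap1 had nearly equal values in the 2 libraries of each time point. A830018L16Rik read 2.27 and 1.94 CPM at 30 min and 6.85 and 7.30 CPM at 1 h (1.75 ± 0.12).

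Some of the rises started from a 30 min level under that of 0 h. Slc37a3, a sugar phosphate transporter family member, read 19.5 and 18.7 CPM at 0 h, 14.2 and 14.0 CPM at 30 min and 48.7 and 48.3 CPM at 1 h (1.78 ± 0.052). Kctd21, an adaptor of cullin 3 ubiquitin ligases, read 0.583 and 0.833 CPM at 0 h, 0.298 and 0.401 CPM at 30 min and 1.76 and 1.72 CPM at 1 h (2.29 ± 0.23). In both, the 30 min libraries were the lowest and the 1 h libraries lay above 0 h. Mzf1, a zinc finger transcription factor, and the antisense RNA Gm19265 had the same order of means, at 0.867 and 0.780 CPM at 30 min and 2.44 and 3.39 CPM at 1 h for Mzf1 and 0.623 and 0.513 CPM at 30 min and 1.97 and 2.09 CPM at 1 h for Gm19265. Against 0 h, the log2 fold change at 30 min passed an adjusted p of 0.01 for Slc37a3 (-0.44) and not for Kctd21 (-0.99, adjusted p = 0.0204), Mzf1 (-0.60, adjusted p = 0.109) or Gm19265 (-0.83, adjusted p = 0.0611).

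Of these 24 genes, 11 overlap another annotated gene in GENCODE M21, 7 of them a gene on the opposite strand. Whether the counting used strand is not stated in the sources used here, so the reads of Il16, Fnip2, Ptgs1, Patj, Car10, Gm19265 and A830018L16Rik could include those of their antisense neighbor. Colq, Gm49439, Prelid2 and Rab39 overlap a gene on the same strand.

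**Figure D3:**
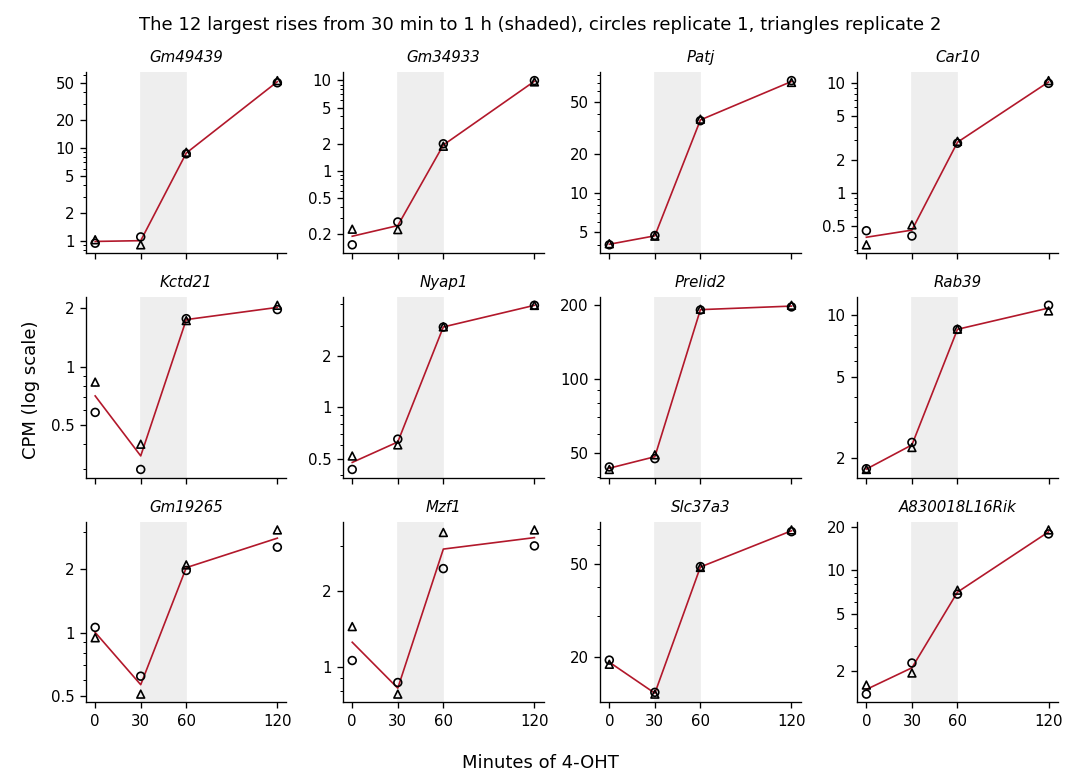
CPM on a log axis against minutes of 4-OHT for the 12 largest rises, with circles for replicate 1, triangles for replicate 2 and lines through the means. In the shaded step from 30 to 60 min all 12 leave the 30 min level, Prelid2 is near level on either side of it, and Slc37a3 and Kctd21 start from under their 0 h level.

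The pre-BCR list showed 1 fall and 1 rise among 16 tested members (background 3.08% and 1.69%), with a median log2 fold change of -0.23. Igll1, which encodes the lambda5 part of the surrogate light chain, fell from 64.1 and 62.3 CPM to 18.1 and 16.1 CPM (-1.88 ± 0.063, adjusted p = 2.42e-15). Its neighbor and partner Vpreb1 read 9.53 and 10.0 CPM at 30 min and 4.76 and 5.92 CPM at 1 h, for which the fit gave -0.89 ± 0.10 with adjusted p = 1.63e-07, which stopped short of 2-fold and passed it without 1 h replicate 2 (-1.04). Blk, a Src-family kinase, rose from 0.487 and 0.691 CPM to 1.34 and 1.11 CPM (1.04 ± 0.23, adjusted p = 8.66e-04), and this call was lost without 30 min replicate 1 (adjusted p = 0.0193) or 1 h replicate 1 (adjusted p = 0.0221). Among signaling members picked after their values were seen, Syk had a log2 fold change of 0.50 and Blnk -0.76, neither past 2-fold.

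Among V(D)J recombination genes 1 of 10 tested members fell (10%, background 3.08%), with a median of 0.05. Dntt, the template-independent polymerase that adds bases at the joints, read 4.09 and 4.23 CPM at 30 min and 1.57 and 1.79 CPM at 1 h (-1.31 ± 0.14, adjusted p = 1.53e-07). No member of the 12 tested genes of IL-7 receptor, JAK-STAT5 and SOCS signaling was called (background 3.08% and 1.69%), with a median of 0.05. At an adjusted p under 0.01 and any fold, 5 of the 12 were below 0 and 3 above (background 15.7% and 16.3%). The MYC and D cyclin list had 1 fall in 16 (6.25%, background 3.08%). Ccnd2, which encodes a D cyclin, fell from 73.4 and 72.8 CPM to 23.6 and 23.4 CPM (-1.63 ± 0.078, adjusted p = 4.32e-13). Myc, by comparison, read 63.6 and 62.2 CPM at 0 h, 30.6 and 29.6 CPM at 30 min and 31.3 and 29.2 CPM at 1 h (0.01 ± 0.093, adjusted p = 0.954), with its 30 min and 1 h libraries overlapping. None of 14 quiescence genes was called (background 3.08% and 1.69%), with a median of 0.27 and 9 members above 0. At an adjusted p under 0.01 and any fold, 3 of the 14 were below 0 and 6 above (background 15.7% and 16.3%).

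B-lineage transcription factors had 5 falls among 26 tested members (19.2%, background 3.08%) and no rise (background 1.69%), with a median of -0.29. Lef1, a partner of beta-catenin, fell from 913 and 919 CPM to 447 and 439.7 CPM (-1.05 ± 0.042, adjusted p = 2.93e-14). Bcl11a, a zinc finger repressor of early lymphoid cells, fell from 465 and 469.9 CPM to 231 and 233 CPM (-1.01 ± 0.048, adjusted p = 3.77e-13). Both stood just past 2-fold, with libraries that hardly differed within a time point. Gfi1b, a repressor best known in the erythroid lineage, read 20.8 and 19.4 CPM at 30 min and 9.08 and 8.35 CPM at 1 h (-1.20 ± 0.10). Irf4, a factor downstream of the pre-BCR, read 4.22 and 3.48 CPM at 30 min and 1.45 and 1.82 CPM at 1 h (-1.24 ± 0.17). Id3, an inhibitor of E proteins, was at the edge of detection, with 19 and 20 counts at 30 min against 2 and 6 at 1 h, a ratio of 0.188 with a 95% counting interval of 0.0761 to 0.409, and its call was lost without 1 h replicate 1 (adjusted p = 0.028).

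Of the 26 factors, 17 were below 0 and 9 above. Among the 9, and picked after their values were seen, Bach2 read 503 and 504 CPM at 30 min and 979 and 978 CPM at 1 h (0.96 ± 0.045), Foxp1 3974 and 4003 CPM at 30 min and 6407 and 6367 CPM at 1 h (0.68 ± 0.029) and Ebf1 9886 and 10016 CPM at 30 min and 14593 and 14527 CPM at 1 h (0.55 ± 0.032), each at an adjusted p under 0.01 and short of 2-fold. In these 3 genes both libraries at 1 h were above both at 30 min. Pax5, with 0.32, and Tcf12, with 0.32, were nearer to 0.

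Immediate early genes had 3 falls among 23 tested members (13.0%, background 3.08%) and no rise (background 1.69%), with 20 members below 0 and a median of -0.48. Atf3, a stress-responsive factor, read 7.18 and 6.11 CPM at 30 min and 1.99 and 1.99 CPM at 1 h (-1.73 ± 0.12, adjusted p = 2.03e-10). Fosb, an AP-1 subunit, read 2.27 and 1.94 CPM at 30 min and 0.931 and 0.540 CPM at 1 h (-1.48 ± 0.31, adjusted p = 5.67e-04). Egr3, a zinc finger factor of antigen receptor signaling, read 0.704 and 0.869 CPM at 30 min and 0.393 and 0.295 CPM at 1 h (-1.18 ± 0.29, adjusted p = 0.00258). Atf3 fell at a level where its libraries were well apart, while Fosb and Egr3 had few counts. The Egr3 call was lost with DESeq2 (adjusted p = 0.0563), without 30 min replicate 2 (0.0469) and without 1 h replicate 2 (0.0321), and the Fosb call without 1 h replicate 2 (adjusted p = 0.0151). MAPK feedback genes had 2 falls among 13 (15.4%, background 3.08%) and a median of -0.38. Dusp4, an ERK phosphatase, fell from 33.7 and 35.03 CPM to 15.1 and 14.6 CPM (-1.21 ± 0.066), and Spry1, an inhibitor of receptor tyrosine kinase signaling, from 6.80 and 7.13 CPM to 2.98 and 3.22 CPM (-1.17 ± 0.15). None of 15 NF-kB genes was called (background 3.08% and 1.69%), and their median was -0.04. At an adjusted p under 0.01 and any fold, 2 of the 15 were below 0 and 3 above (background 15.7% and 16.3%).

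Integrin subunits had calls in both directions, 2 falls and 2 rises among 21 tested members, with a median of -0.27. Each was 9.52% of the list (background 3.08% for falls and 1.69% for rises). Itga5, the alpha subunit of the fibronectin receptor, read 99.3 and 98.0 CPM at 0 h, 90.0 and 87.4 CPM at 30 min and 40.4 and 38.2 CPM at 1 h (-1.17 ± 0.080, adjusted p = 1.27e-10), and 5.98 and 6.34 CPM at 2 h. Itgal, the alpha subunit of LFA-1, read 60.2 and 57.6 CPM at 30 min and 27.5 and 27.3 CPM at 1 h (-1.10 ± 0.072, adjusted p = 6.99e-11). Itgb3, the beta subunit of the vitronectin receptor, rose from 1.33 and 1.74 CPM to 3.12 and 3.49 CPM (1.09 ± 0.23), and stood at 13.4 and 12.8 CPM at 2 h. The Itgb3 call was lost without 30 min replicate 1 (adjusted p = 0.0105). Itgax, which encodes CD11c, went from 1 and 3 counts at 30 min to 19 and 16 counts at 1 h, a ratio of 8.04 with a 95% counting interval of 2.87 to 31.1.

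Migration and adhesion receptors had 1 fall and 1 rise among 18 (5.56% each, background 3.08% and 1.69%), with a median of -0.33. Sema7a, a membrane-anchored semaphorin, read 25.7 and 25.8 CPM at 0 h, 3.79 and 3.16 CPM at 30 min and 0.641 and 1.01 CPM at 1 h (-2.09 ± 0.19), having lost most of its signal before 30 min. S1pr1, the sphingosine 1-phosphate receptor of lymphocyte egress, had 1 and 4 counts at 30 min and 12 and 21 at 1 h, a ratio of 6.06 with a 95% counting interval of 2.35 to 19.9. Leaving out 1 library ended the S1pr1 call for 3 of the 4 libraries, with adjusted p from 0.0112 to 0.0571. The Notch list had 1 fall and 1 rise among 12 (8.33% each, background 3.08% and 1.69%) and a median of -0.32. The ubiquitin ligases of this list parted, Dtx4 at 11.8 and 10.7 CPM at 30 min and 4.26 and 4.08 CPM at 1 h (-1.43 ± 0.083) and Dtx1 at 1.14 and 1.03 CPM at 30 min and 2.40 and 2.33 CPM at 1 h (1.14 ± 0.22).

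Cell cycle and replication genes had 1 fall among 28 tested members (3.57%, background 3.08%). It was Ccnb1, the mitotic cyclin B1, which fell from 58.2 and 58.5 CPM to 25.4 and 25.3 CPM (-1.20 ± 0.072, adjusted p = 1.84e-11). Below 0 were 23 of the 28, with a median of -0.21, and 15 were below 0 at an adjusted p under 0.01 at any fold (background 15.7%). The paper set aside a cluster rich in sterol genes, which it linked to tamoxifen. Cholesterol biosynthesis genes had no call among 23 (background 3.08% and 1.69%). Above 0 were 18 of them, with a median of 0.20, and 10 were above 0 at an adjusted p under 0.01 (background 16.3%), the largest of which, named after its value was seen, was Lss, lanosterol synthase, at 0.85 ± 0.061. In the T-cell marker list Zap70, a kinase of T-cell receptor signaling, fell from 15.7 and 14.3 CPM to 6.14 and 5.87 CPM (-1.32 ± 0.11), with Cd3d, Cd3e, Cd3g and Cd4 under the filter on low counts.

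A list of targets drawn from the study had 17 tested members, of which 9 fell (52.9%, background 3.08%) and none rose, with a median of -1.01. The study chose these targets on these samples, so the count is not independent evidence of its direction. The list is also not complete, since it leaves out Ccnb1, described above, and Ccnd1 (-0.71), which the study's text names, and holds Nudt4, which that text does not. Beside Gfra2, Ramp1, Igll1, Ccnd2, Dntt, Itga5 and Bcl11a, Plekho2, a pleckstrin homology domain protein, fell from 50.6 and 49.1 CPM to 11.5 and 12.1 CPM (-2.08 ± 0.061, adjusted p = 3.89e-16). Hs3st2, a heparan sulfate sulfotransferase, fell from 0.921 and 1.14 CPM to 0.372 and 0.418 CPM (-1.39 ± 0.30, adjusted p = 6.34e-04), and this call was lost with DESeq2 (adjusted p = 0.0115), without 30 min replicate 2 (0.0179) and without 1 h replicate 1 (0.0127). Smaller differences were fitted for Endod1 (-0.98), Hs3st3b1 (-0.83), Serpinf1 (-0.70) and Lrrfip1 (-0.69), all at an adjusted p under 0.01, and Endod1 passed 2-fold with library totals (-1.01) and without 1 h replicate 2 (-1.01). Nudt4, a diphosphoinositol phosphatase, read 182 and 186 CPM at 0 h, 39.9 and 39.8 CPM at 30 min and 34.2 and 35.6 CPM at 1 h (-0.19 ± 0.049), so most of its difference between 0 h and 1 h was present at 30 min. Espnl, which read 19.1 and 17.9 CPM at 30 min and 17.3 and 18.0 CPM at 1 h (-0.07 ± 0.088, adjusted p = 0.582), stood at 9.45 and 9.76 CPM at 2 h.

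**Figure D4:**
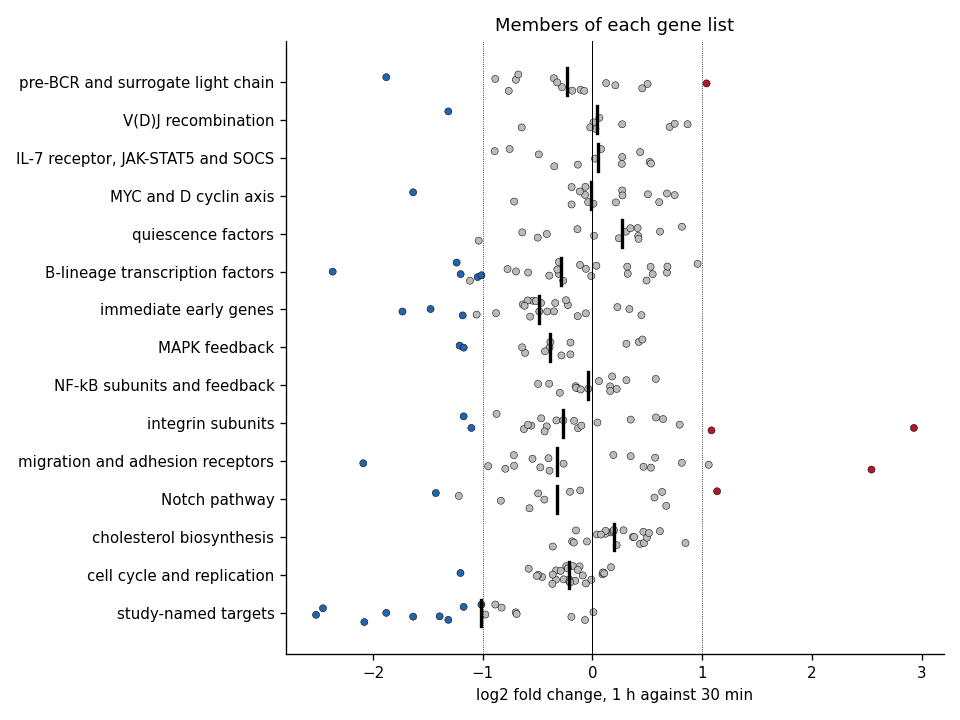
Each point is a tested member of a gene list at its log2 fold change, 1 h against 30 min, with the list's median as a black bar and dotted lines at 2-fold. Blue members were called lower and red ones higher. Called members number 5 in the B-lineage list and 9 in the list of targets drawn from the study, which has its median at -1.01.

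The share of genes called was read against gene span, because counts cover introns. Of genes under 10 kb, 1.94% fell (Wilson interval 1.59% to 2.36%) and 1.19% rose (0.923% to 1.52%). From 10 to 30 kb the shares were 3.11% (2.67% to 3.63%) and 1.72% (1.40% to 2.12%). From 30 to 100 kb they were 3.94% (3.40% to 4.56%) and 1.89% (1.53% to 2.34%), and over 100 kb they were 3.94% (3.20% to 4.85%) and 2.30% (1.74% to 3.03%). Genes under 10 kb had the fewest reads, with a median of 1.54 CPM, against 40.5 CPM from 30 to 100 kb. The shares were read again with only genes averaging at least 1 CPM. The shares that fell were then 1.44%, 2.33%, 3.13% and 4.63% from the shortest to the longest. The median level of the kept genes still climbed with span, at 6.27, 23.1, 62.6 and 123 CPM, so span and level cannot be told apart. These intervals cover counting error over genes, which are not independent replicates.

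The later libraries, which the comparison does not use, were read against 0 h for the same genes in the same model. At 2 h, the 511 genes that fell had a median log2 fold change of -1.98 against 0 h, and 389 of them (76.1%) were called lower, which is 33.9% of all genes called lower at that time (6.91% of genes tested were). At 24 h their median was -2.12, with 370 called lower and 27 called higher (20.1% and 20% of genes tested were). The 280 genes that rose had a median of 1.63 at 2 h, when 231 (82.5%) were called higher, 22.3% of all called higher then (6.25% of genes tested were). At 24 h their median was 1.76, with 175 called higher and 20 called lower. The spread was wider at 24 h than at 2 h in both groups and over all genes tested. Among the genes that rose, the 5% and 95% points lay at 0.60 and 4.56 at 2 h and at -1.47 and 5.54 at 24 h. Among those that fell they lay at -4.35 and -0.36 at 2 h and at -5.65 and 1.06 at 24 h. All genes tested had them at -1.43 and 1.39 at 2 h and at -2.55 and 2.81 at 24 h. Over all genes tested, the median stayed between -0.01 and 0.03 from 2 h to 24 h.

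**Figure D5:**
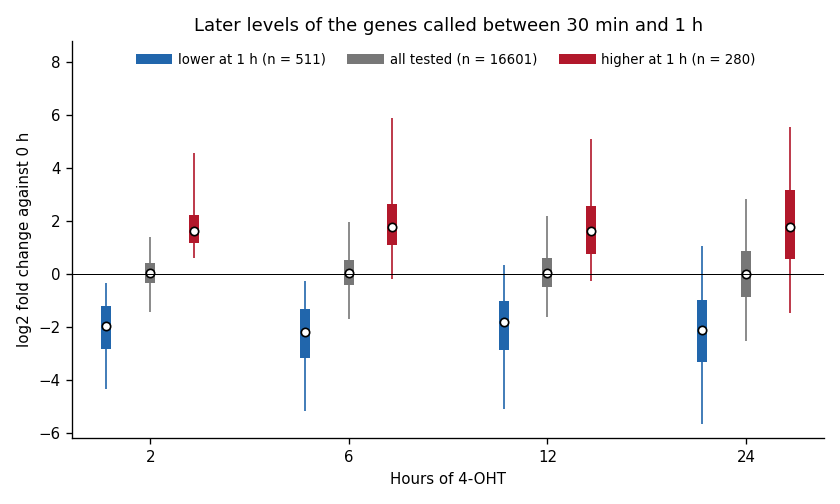
Log2 fold change against 0 h at 2, 6, 12 and 24 h for the genes that fell (blue) or rose (red) between 30 min and 1 h and for all genes tested (gray). Circles are medians, thick bars the middle 50% of genes and thin lines the 5% to 95% range, and the medians of both groups keep their side of 0 at all 4 times.

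The neighboring steps gave fewer calls, though both share libraries with this one. From 0 h to 30 min, 68 genes were lower (0.41%) and 9 higher (0.0542%), and from 1 h to 2 h, 180 were lower (1.08%) and 255 higher (1.54%). The steps differ in length, and their numbers were not tested against each other.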

How the data were processed

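Per the study's methods and the labels, the authors aligned paired-end reads from rRNA-depleted, directional libraries to mm10 (GRCm38) with STAR in nf-core/rnaseq, counted them per gene with featureCounts, introns included, and deposited raw counts without normalization, 1 column for each library. The submitters' processing notes also name CASAVA 2.17. Annotation release, strand setting and the treatment of reads shared by overlapping genes are not given in the sources used here. Libraries were grouped by the time point in the labels, and the table holds 56239 genes. Depth ran from 33296158 to 46868954 counts per library, intervals cover counting error only, and the reads carry no molecular identifiers.

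A gene entered the test if 2 or more of the 20 libraries had 10 or more counts for it (16601 genes), which was made with edgeR 4.0.16 (limma 3.58.1, R 4.3.3): normalization by TMM, a quasi-likelihood F-test, a model with 1 level for each time point, contrast of 1 h with 30 min, Benjamini-Hochberg adjustment over all genes tested, adjusted p under 0.01 and fold above 2. All libraries entered the fit so that they share 1 estimate of the spread. CPM uses TMM-scaled library sizes. Replicates differed by more than sampling noise, with a chi-square per degree of freedom of 1.57 at 30 min and 1.498 at 1 h, and were kept as 2 samples each. Among the called genes, 2 that rose had no count at 30 min, and with them at the floor of 3 counts the median was again 1.32. The genes named are the 12 largest falls and 12 largest rises averaging at least 1 CPM without overlap between libraries, the list of targets drawn from the study, called members of the other lists, and Ikzf1. Syk, Blnk, Bach2, Foxp1, Ebf1, Pax5, Tcf12, Ccnd1 and Lss were named after their values were seen, and markers to describe the cells. Members and lists were chosen with earlier results of these data known. Gene positions and biotypes came from GENCODE M21 (GRCm38), which holds 55240 of the identifiers, and promoters from RefSeq (GRCm38.p6). Alternatives were DESeq2 1.42.0, its size factors, library totals, other filters and thresholds, a test against a 2-fold change, only the 4 libraries, the replicate block, leaving out each replicate, genes overlapping no other gene, and TGGGAA. Restricting the span comparison to genes averaging at least 1 CPM was chosen after seeing the data. The steps were tested on simulated counts.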

Additional observations from a re-analysis of the deposited data

How the results depend on the processing

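The 511 falls and 280 rises became 393 and 228 with DESeq2, 517 and 273 with DESeq2's size factors, 542 and 242 with library totals, 534 and 324 without a filter, 549 and 292 in a model of only the 4 libraries, and 629 and 384 at an adjusted p under 0.05. They became 293 and 163 where at least 10 counts were asked for in every library, a filter that removes genes near 0 at either time, 123 and 39 in the test against a 2-fold change, and 2613 and 2703 with no fold threshold. Leaving out each of the 4 libraries in turn gave 427 to 455 falls and 229 to 253 rises. The replicate block, with same-numbered libraries paired, gave 502 falls and 269 rises. Deviations of same-numbered libraries at 30 min and 1 h correlated at 0.188 over 9107 genes, but with 2 pairs the numbers are not shown to pair the libraries.

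All 24 of the largest falls and rises kept their call under the 9 alternatives run on them, as did 43 of the 50 named genes called, and none of the 50 changed direction. The sign of Myc, at 0.01, turned with library totals (-0.02), without 30 min replicate 2 (-0.01) and without 1 h replicate 1 (-0.04). Among genes overlapping no other gene, 2.39% of those under 10 kb and 4.57% of those from 30 to 100 kb fell, and 2.31% of those from 10 to 30 kb rose. Among genes averaging at least 1 CPM, 1.44%, 2.33% and 3.13% fell in the 3 shorter classes and 0.665% and 1.19% rose in the 2 shortest, and the cause was not tested. With TGGGAA in place of GGGAA, the share of windows was 32.1% for falls, 19.2% for rises and 23.7% for all genes. The Wilson interval for falls lay above those for rises and for all genes, and the cause was not tested. With 2 libraries at each time, a call at few counts such as Id3, Egr3, S1pr1 or Itgax is the least certain.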
